A study of Mus musculus with 6 samples.

Results

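Transcripts of 8 genes of the JAK-STAT pathway were followed in primary bone-marrow-derived macrophages (BMDMs), namely the 4 Janus kinase genes Jak1, Jak2, Jak3 and Tyk2 and the STAT genes Stat2, Stat5a, Stat5b and Stat6. They were found by gene symbol among the 54532 genes listed, and each symbol matched 1 gene. The set was chosen with earlier results of these data known. All 8 were among the 12755 genes tested, those that reached 1 TPM in 2 or more of the 6 libraries. The 6 RNA-seq libraries form 3 groups of 2, with replicates A and B in each. Untreated BMDMs (Untr) of wildtype C57BL/6 mice received neither agent. LPS, a component of the bacterial outer membrane sensed by the receptor TLR4, was given at 100 ng/ml for 2 h. The Met + LPS group first received metformin, an antidiabetic drug, at 5 mM for 6 h, before LPS at that dose and time. No group received metformin alone, so that the effect of metformin is measured here only under LPS. The cells had been grown from bone marrow for 6 days in medium conditioned by L929 cells, and no label says whether replicates A and B came from separate mice. The p-values therefore measure the spread between these cultures only, which may be technical.

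Janus kinases are tyrosine kinases bound to the inner side of cytokine receptors that have no kinase activity of their own. When a cytokine joins the receptor chains, the kinases phosphorylate each other, the receptor and then STAT proteins, which pair, enter the nucleus and act as transcription factors. Jak1 and Tyk2 serve the type I interferon receptor, whose signal reaches a complex called ISGF3 that holds STAT2 and IRF9. Jak2 serves receptors such as those of GM-CSF and interferon-gamma, and Jak3 pairs with the common gamma chain encoded by Il2rg. STAT5A and STAT5B are close paralogs used by GM-CSF and related cytokines, whereas STAT6 carries signals of IL-4 and IL-13. In macrophages LPS does not engage these receptors itself, but the cytokines it induces, such as interferon-beta and IL-10, do.

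LPS raised Jak2 and Stat5a far more than the other members and raised Stat2, Stat5b and Jak1 by smaller steps, whereas the direction of Stat6, Jak3 and Tyk2 depended on how the libraries were scaled. Metformin pretreatment lowered 7 of the 8 transcripts relative to LPS alone, where 32.6% of all tested genes passed the test and 18.0% passed it as lower. Stat5a was lowered most, and Stat6 was the member that did not pass. Of the 7, Stat5a, Stat5b and Jak2 passed under every alternative tried. Transcripts are given in TPM, a unit in which the authors divided read counts by gene length and scaled every library to the same total, so that levels of different genes can be compared. Tests used limma on log2(TPM + 1) over all 12755 genes with Benjamini-Hochberg adjustment, and a gene passed at an adjusted p-value under 0.01. With 2 libraries against 2 an exact permutation test cannot give a p-value below 0.333, so that these p-values rest on the spread pooled across genes. In bulk RNA, fewer cells with a transcript and less transcript per cell cannot be told apart. Scaling is the main limit of the comparison of LPS with untreated BMDMs, because the log2 fold change of the median gene was -0.48 in TPM as deposited and -0.01 after each library had been rescaled by its median ratio to the others. Between Met + LPS and LPS the median was -0.03.

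**Figure D1:**
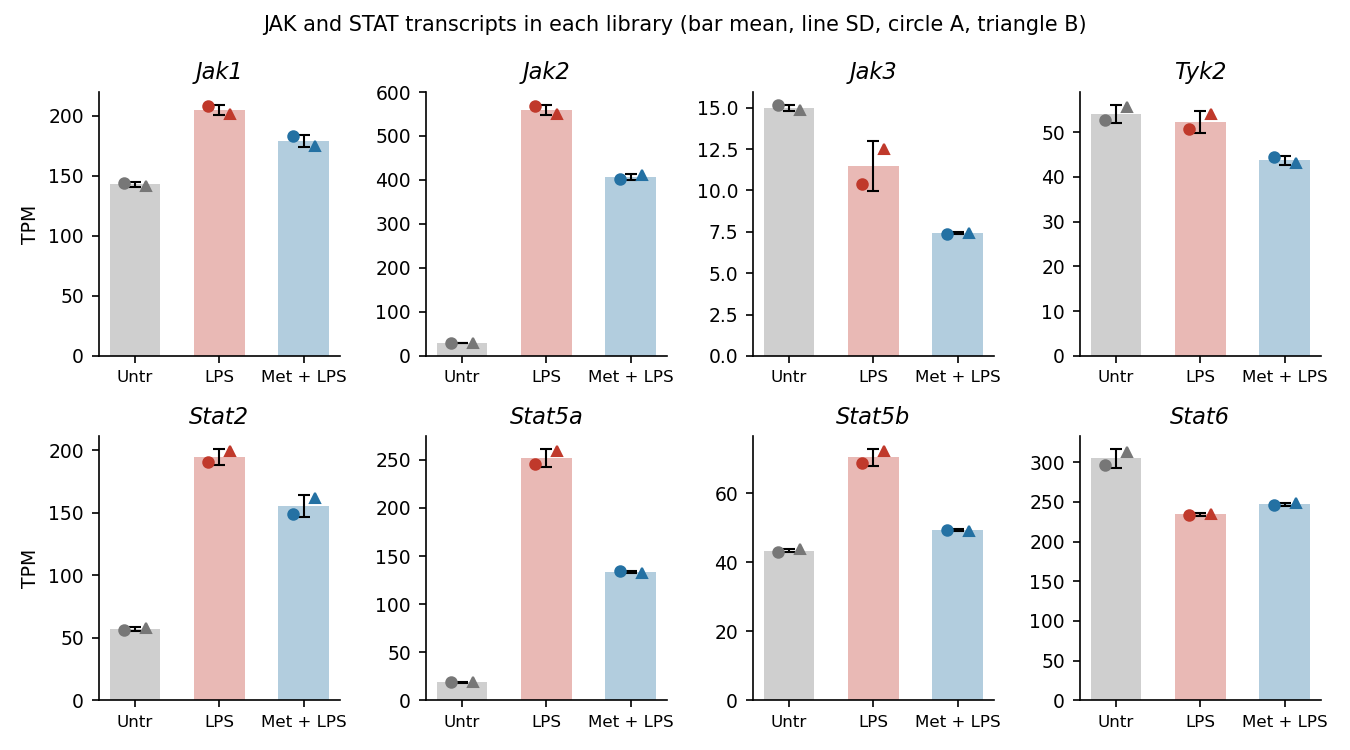
TPM (vertical axes, from 0, with a separate scale for each gene) of the 8 genes in untreated (Untr), LPS and Met + LPS BMDMs. Bars give the mean of 2 libraries, lines the SD, circles replicate A and triangles replicate B; Jak2 rises from 28.3 to 559 TPM and Stat5a from 18.5 to 252 TPM, and Jak3 in LPS has the widest gap between replicates for its level.

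Jak2 (ENSMUSG00000024789, GRCm38 chromosome 19, 29251828 to 29313080, plus strand) was at 28.3 TPM in both untreated libraries, at 568 and 551 TPM in LPS libraries A and B, and at 401 and 412 TPM in Met + LPS. The 3 groups did not overlap, and the Met + LPS libraries stood between the others. LPS raised it 19.8-fold, a log2 fold change of 4.26 (standard error 0.03, 95% interval 4.18 to 4.34, adjusted p = 1.7e-09 in limma), which was rank 107 from the highest among the 12755 tested genes. In Met + LPS it was 27.3% lower than in LPS, a log2 fold change of -0.46 (-0.54 to -0.38, adjusted p = 1.0e-04 in limma). Jak2 thus remained 14.4-fold above untreated BMDMs. Its transcripts shared no 31-base stretch with any other annotated gene, so that the counting had no other gene to assign its reads to.

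Jak1 (ENSMUSG00000028530, GRCm38 chromosome 4, 101152367 to 101265282, minus strand), the kinase common to most of these receptors, was at 144 and 141 TPM in untreated, 208 and 202 TPM in LPS and 183 and 175 TPM in Met + LPS libraries. These groups did not overlap either, and the order was the same as for Jak2 on a much smaller scale. The rise with LPS was 1.43-fold (log2 fold change 0.52, 0.43 to 0.61, adjusted p = 1.9e-05 in limma), or 1.04 on the log2 scale after rescaling, and the decrease with metformin was 12.6% (log2 fold change -0.19, -0.28 to -0.11, adjusted p = 0.0054 in limma).

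Tyk2 (ENSMUSG00000032175, GRCm38 chromosome 9, 21104068 to 21131243, minus strand), the partner of JAK1 at the type I interferon receptor, was at 52.7 and 55.6 TPM in untreated and 50.6 and 54.1 TPM in LPS libraries, which overlapped. In Met + LPS it was lower, at 44.4 and 43.0 TPM. The log2 fold change with LPS was -0.05 (-0.17 to 0.07, adjusted p = 0.393 in limma), and after rescaling it was 0.47 (adjusted p = 2.1e-04), so that its direction depends on the scaling. The decrease with metformin was 16.5% (log2 fold change -0.25, -0.37 to -0.13, adjusted p = 0.0063 in limma). Tyk2 overlaps the antisense gene 1700084C06Rik, which was listed at 0 in every library, and 91.2% of its 31-base stretches occur in no other gene. Without strand, reads from the shared part cannot be told apart.

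Jak3 (ENSMUSG00000031805, GRCm38 chromosome 8, 71676296 to 71690575, plus strand), best known from lymphocytes, was the lowest of the 8 in every group. It stood at 15.1 and 14.9 TPM in untreated, 10.4 and 12.5 TPM in LPS and 7.39 and 7.45 TPM in Met + LPS libraries, and rested on 299 to 616 reads per library. The groups did not overlap, but the LPS libraries differed from each other more than the other pairs. Between LPS and untreated BMDMs the log2 fold change was -0.37 (-0.58 to -0.16, adjusted p = 0.0066 in limma), against 0.12 (adjusted p = 0.268) after rescaling, so that no direction holds for it. It passed the test without LPS library B, but not without any other single library (adjusted p 0.0149 to 0.0504 in limma). With metformin it was 35.2% lower, a log2 fold change of -0.56 (-0.77 to -0.35, adjusted p = 0.0025 in limma). The neighbouring gene Insl3, on the same strand, lies over 1362 bases of Jak3 and did not exceed 1.79 TPM. Jak3 shares 374 of its 31-base stretches (6.92%) with Insl3, so that the counting could have assigned some reads to either gene or to neither.

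Of the STAT genes, Stat5a (ENSMUSG00000004043, GRCm38 chromosome 11, 100859351 to 100885169, plus strand) changed most. It was at 18.4 and 18.6 TPM in untreated, 245 and 259 TPM in LPS and 134 and 132 TPM in Met + LPS libraries. The untreated libraries were far below the others, and both Met + LPS libraries were below both LPS libraries. LPS raised it 13.6-fold (log2 fold change 3.70, standard error 0.04, 3.60 to 3.79, adjusted p = 4.6e-09 in limma), rank 160 from the highest. Metformin lowered it by 47.2% relative to LPS (log2 fold change -0.92, -1.01 to -0.82, adjusted p = 1.8e-05 in limma), rank 302 from the lowest of all tested genes. The last 72 bases of Stat5a overlap the end of Stat3 on the opposite strand.

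Stat5b (ENSMUSG00000020919, GRCm38 chromosome 11, 100780731 to 100850724, minus strand) lies 8626 bases from Stat5a, and the pair is transcribed in opposite directions. It was at 43.0 and 43.7 TPM in untreated, 68.7 and 72.2 TPM in LPS and 49.5 and 49.1 TPM in Met + LPS libraries. The rise with LPS was 1.62-fold (log2 fold change 0.69, 0.59 to 0.78, adjusted p = 7.9e-06 in limma), and the decrease with metformin was 30.1% (log2 fold change -0.51, -0.60 to -0.41, adjusted p = 1.5e-04 in limma). After rescaling, the LPS value was 1.20. In Met + LPS it was 1.14-fold above untreated BMDMs, or 0.18 on the log2 scale as deposited (limma, adjusted p = 0.0050) and 0.71 after rescaling. As deposited, this difference did not pass the test without either untreated or either Met + LPS library (adjusted p 0.0186 to 0.0344 in limma). The 2 paralogs share 836 of their 31-base stretches, 11.5% of those of Stat5a and 15.1% of those of Stat5b, so that the authors' counting could have assigned some reads of one to the other or to neither.

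The ratio of Stat5a to Stat5b does not depend on the scaling between libraries. It was 0.428 and 0.426 in the untreated libraries, 3.57 and 3.58 in LPS and 2.71 and 2.69 in Met + LPS. Stat5b was thus the more abundant transcript before LPS and Stat5a after it in every library, and the ratio was lower with metformin than without. Promoter sequences from RefSeq (GRCm38.p6), which list 2 starts for each paralog, were searched for stretches in common within 250 bases before the start. The longest common stretch, of 16 bases, lies 32 bases before the downstream start of Stat5a and 23 bases before the second start of Stat5b, which lies inside that gene. It is in no other of the 32851 promoters, and is shown as the longest stretch that the promoters of the paralogs share. Capitals mark the 16 bases, which are preceded by 14 bases of each gene.
Stat5a (chr11:100860438-100860467, plus strand): gctgacctttgaggAGGAAATCGCTGCTCT
Stat5b (chr11:100822578-100822607, minus strand): gctgaccttttagaAGGAAATCGCTGCTCT
Over 63 aligned bases, which include this stretch, 53 were identical (84.1%). The 16 bases of the stretch were picked for being identical, so that the percentage is not that of the flanking bases. Whether these starts are used in BMDMs is not visible in values per gene.

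Stat2 (ENSMUSG00000040033, GRCm38 chromosome 10, 128270559 to 128292849, plus strand), the STAT particular to interferon signaling through ISGF3, was at 56.1 and 58.1 TPM in untreated, 190 and 199 TPM in LPS and 149 and 162 TPM in Met + LPS libraries. The 3 groups did not overlap. LPS raised it 3.41-fold (log2 fold change 1.75, 1.63 to 1.87, adjusted p = 3.1e-07 in limma), rank 585 from the highest. As deposited this is short of the study's size cut-off of 2, and after rescaling the value was 2.27, past it. The study applied that cut-off to fold changes of read counts from DESeq2, so that its own call of Stat2 is not judged here. With metformin it was 20.1% lower than in LPS (log2 fold change -0.32, -0.44 to -0.20, adjusted p = 0.0022 in limma). The Stat2 promoter was the only one of the members' 10 promoters with the interferon-stimulated response element, which ISGF3 binds, searched on both strands as TTTC, any 2 bases and TTTC. It starts 222 bases before the RefSeq start of Stat2 and is present in 2.98% of all 32851 promoters. The match is given in capitals.
Stat2 (chr10:128270261-128270300, plus strand): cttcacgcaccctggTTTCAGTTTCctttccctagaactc

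Of the other motifs searched, the STAT site TTCNNNGAA, present in 7.02% of all promoters, and the AP-1 site TGANTCA, in 6.75%, were in none of the 10. The cAMP response element TGACGTCA, in 1.55% of all promoters, was in that of Jak1, shown in capitals, 101 bases before the start.
Jak1 (chr4:101265302-101265339, minus strand): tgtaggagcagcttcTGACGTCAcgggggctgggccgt
The κB consensus, in 7.25% of all promoters, matched 1 of the 2 Stat5a promoters and no other. The Jak2 promoter held none of the 5 motifs and had 80.8% G and C, against a median of 52.4% over all promoters. Neither trait is particular to Jak2, as the promoter at the first start of Stat5b also held none and had 82% G and C. Such matches describe these 250-base windows only and say nothing about binding.

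Stat6 (ENSMUSG00000002147, GRCm38 chromosome 10, 127642986 to 127660957, plus strand) was the most abundant of the 8 before stimulation, at 296 and 313 TPM. It was at 233 and 235 TPM in LPS and 246 and 248 TPM in Met + LPS libraries. The log2 fold change with LPS was -0.38 (-0.47 to -0.29, adjusted p = 7.6e-05 in limma) in TPM as deposited and 0.15 (adjusted p = 0.0093) after rescaling, so that its direction depends on the scaling. As deposited it was 0.10 above the median gene. With metformin the log2 fold change was 0.08 (-0.01 to 0.16, adjusted p = 0.128 in limma), the highest value among the 8.

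**Figure D2:**
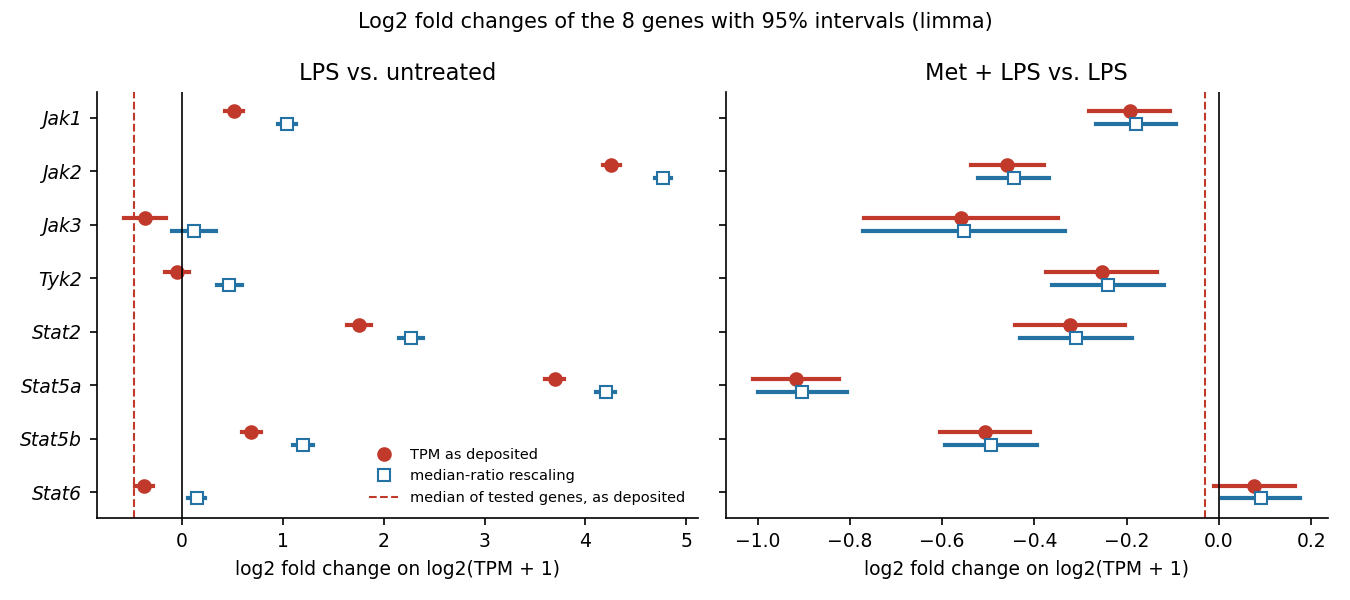
Log2 fold changes on the log2(TPM + 1) scale (horizontal axes) of the 8 genes, LPS vs. untreated on the left and Met + LPS vs. LPS on the right, with 95% intervals from limma. Filled circles are TPM as deposited, open squares the same after median-ratio rescaling, and the dashed line is the median of the 12755 tested genes; rescaling moves Stat6, Jak3 and Tyk2 across 0 on the left and no gene on the right.

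Counted together, 7 of the 8 members passed the test between LPS and untreated BMDMs in TPM as deposited, 5 higher and 2 lower. Of all tested genes 76.3% passed, 16.2% higher and 60.1% lower. After rescaling 7 members passed as well, all of them higher, with Tyk2 in place of Jak3. Among all tested genes 3908 then passed as higher and 3521 as lower. The libraries of 7 members did not overlap, against 91.6% of all tested genes. A share this close to the background is no result about the members. The members' median log2 fold change was 0.60, against -0.48 over all tested genes. It is no independent result, since the set was chosen with earlier results of these data known. The sizes also differed among the members. Jak2 and Stat5a stood 4.74 and 4.18 above the median gene, and Stat6 and Jak3 0.10 and 0.11. At the study's cut-offs (log2 fold change of at least 2), applied here to limma values, Jak2 and Stat5a passed, where 6.08% of all tested genes did. Stat2 joined them after rescaling, which gave 4.77 for Jak2, 4.20 for Stat5a and 2.27 for Stat2.

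Between Met + LPS and LPS 7 members passed, all of them lower, where 32.6% of all tested genes passed, 14.5% higher and 18.0% lower. The libraries did not overlap for any of the 8, against 73.8% of all tested genes. The median log2 fold change was -0.39, against -0.03 over all tested genes, in a set chosen with earlier results of these data known. Only Stat5a passed the study's cut-off of 0.7, applied here to limma values, which 8.28% of all tested genes passed. The count of 7 was 3 without either untreated library or without Met + LPS library A, 4 without LPS library B or Met + LPS library B, and 5 without LPS library A. Stat5a, Stat5b and Jak2 passed under each of the 16 alternatives tried, whereas Jak1 passed in 7, Tyk2 in 6, Stat2 in 9 and Jak3 in 10 of them. The 7 log2 fold changes were below 0 in all 16.

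Because the LPS libraries enter both comparisons, with opposite sign, the values are given side by side against untreated BMDMs. The increase over untreated BMDMs was 531 TPM for Jak2 under LPS and 379 TPM with metformin before it. For Stat5a these values were 234 and 115 TPM, for Stat2 138 and 98.5 TPM, for Jak1 62.1 and 36.2 TPM and for Stat5b 27.1 and 5.91 TPM. After rescaling, the log2 fold changes of Met + LPS against untreated BMDMs were 4.33 for Jak2, 3.30 for Stat5a, 1.96 for Stat2, 0.86 for Jak1 and 0.71 for Stat5b. All 8 members passed the test between Met + LPS and untreated BMDMs (75.1% of all tested genes did, 16.3% higher and 58.8% lower), 5 of them higher and 3 lower, and Jak3, 50.5% below its untreated mean, had the largest decrease. No member's libraries overlapped between these groups, against 90.7% of all tested genes, and Jak2 and Stat5a were past a log2 fold change of 2, as were 5.35%. The 2 lower members Stat6 and Tyk2 were higher after rescaling (0.24 and 0.23 in place of -0.30 and -0.30), and Jak3 was lower under both (-0.43 and -0.93).

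The order of the members by level changed accordingly. In untreated BMDMs it was Stat6, Jak1, Stat2, Tyk2, Stat5b, Jak2, Stat5a and Jak3. In LPS it was Jak2, Stat5a, Stat6, Jak1, Stat2, Stat5b, Tyk2 and Jak3. Metformin pretreatment left Jak2 highest and moved Stat5a behind Stat6, Jak1 and Stat2. The libraries of neighbours in these orders did not overlap in any group, but Stat2 and Tyk2 in untreated BMDMs differed by 1.06-fold, Jak1 and Stat2 in LPS by 1.05-fold and Stat5a and Stat6 in LPS by 1.08-fold.

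Within the Janus kinases, a sum of 240 TPM in untreated BMDMs became 828 TPM under LPS and was 637 TPM with metformin. Jak1 held 59.5% ± 0.80 (SD, n = 2) of it in untreated BMDMs and Jak2 11.8% ± 0.0078. In LPS Jak2 held 67.5% ± 0.43 and Jak1 24.7% ± 0.17, and in Met + LPS 63.9% ± 1.1 and 28.1% ± 0.91. Tyk2 went from 22.5% to 6.32% and 6.86%, and Jak3 from 6.24% to 1.38% and 1.17%. Within the 4 STAT members, Stat6 held 71.9% ± 0.45 in untreated BMDMs, 31.2% ± 0.64 in LPS and 42.2% ± 0.34 in Met + LPS. Stat5a held 4.37% ± 0.11, 33.5% ± 0.38 and 22.8% ± 0.57 in the same order, and Stat2 13.5% ± 0.12, 25.9% ± 0.17 and 26.6% ± 1.1. Stat5b held between 8.30% and 10.4% in all 6 libraries. These shares are free of the scaling between libraries. Within each family they sum to the whole, so that they are not separate results for each gene. The share of Stat6 rose with metformin although its TPM did not pass the test. Shares of Stat2 in LPS and Met + LPS overlapped, and those of the other members did not overlap between groups. Such separation is common here, since the TPM of 73.8% to 91.6% of all tested genes did not overlap between groups.

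**Figure D3:**
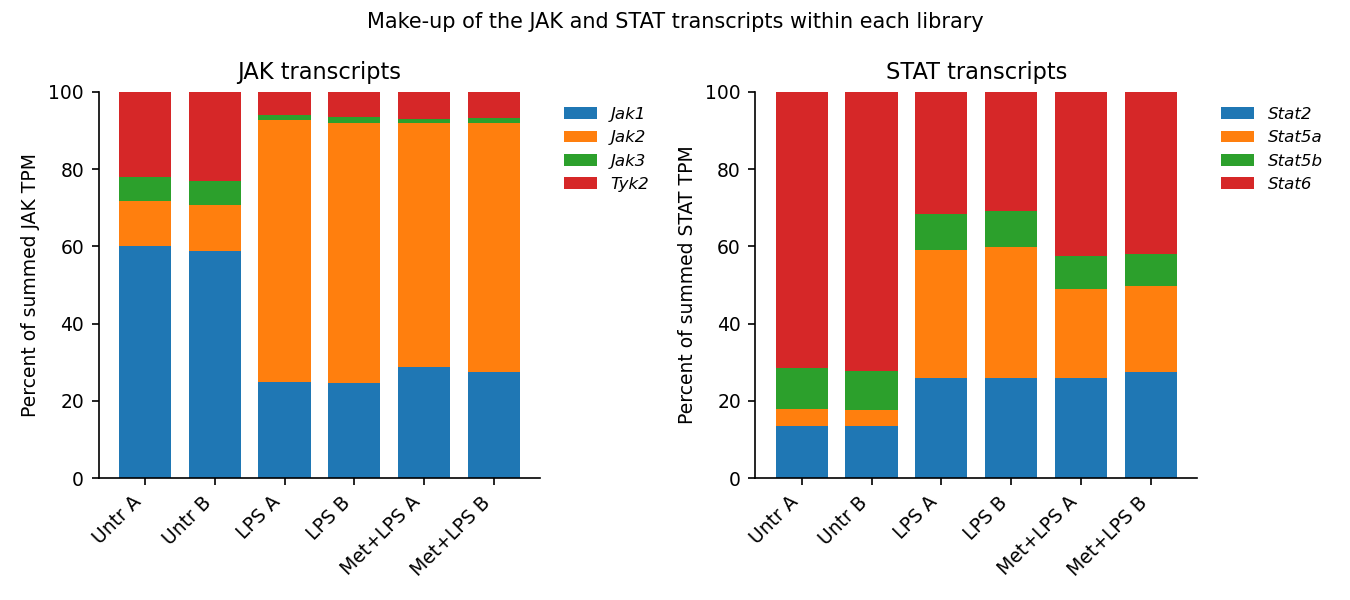
Percent of the summed TPM of the 4 Janus kinase genes (left) and the 4 STAT members (right) in each of the 6 libraries (horizontal axes), stacked to 100. Jak1 and Stat6 hold the largest shares before LPS, at 59.5% and 71.9%, Jak2 holds 67.5% of the Janus kinases in LPS, and Stat5a holds 33.5% of the 4 STAT members in LPS and 22.8% in Met + LPS.

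Genes with the most similar profile were sought by the distance between log2(TPM + 1) values over the 6 libraries, each centred on its mean. Nearest to Jak2 were Nod2, a sensor of bacterial peptidoglycan (distance 0.12), and Ehd1 (0.17). Nod2 went from 2.94 TPM in untreated BMDMs to 80.3 in LPS and 56.0 in Met + LPS. Nearest to Stat5a were Foxp4 (0.13) and Il15 (0.13), a cytokine that itself signals through the common gamma chain. Il15 was at 27.9, 378 and 209 TPM in the same order. Nearest to Stat2 were Naa25 (0.03) and Ikbke (0.07), a kinase upstream of interferon-beta. Those of Stat5b were Aff1 and Dcp1a, of Jak1 Cand1 and Rnf115, of Stat6 Dnm2 and Vdac2, of Jak3 Llgl1 and C1qc, and of Tyk2 Klhdc4 and Pi4k2a, at distances between 0.03 and 0.07.

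Other genes of the pathway were read from lists, on the same log2 scale. With LPS 16.2% of all tested genes passed as higher and 60.1% as lower, and with metformin 14.5% and 18.0%. After rescaling 3908 of the 12755 tested genes passed as higher with LPS and 3521 as lower. Counts close to these shares are no result about a list. Outside the members, Irf9, the DNA-binding partner of STAT2 in ISGF3, rose with LPS by 0.58 and Stat3 by 0.37, while Stat4 had 1.39 TPM in untreated BMDMs and did not pass. With metformin Stat3 fell by 0.74, and neither Irf9 (-0.04) nor Stat4 (-0.24) passed. The median of these 3 genes was 0.37 with LPS and -0.24 with metformin.

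Of 14 listed ligands of JAK-bound receptors 10 were tested, and with LPS 8 rose and 2 fell, with a median log2 fold change of 4.32. Il12b reached 645 TPM from 0.721, Il27 767 TPM from 1.78, Il6 177 TPM from 0.225 and Ifnb1, which encodes interferon-beta, 165 TPM from 0.175. With metformin 4 of the 10 rose and 2 fell. Ifnb1 rose further to 712 TPM (log2 fold change 2.11) and Lif from 2.30 to 13.4 TPM (2.13), while Il10 fell from 160 to 66.9 TPM (-1.25). Osm rose by 1.56.

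Of 23 receptor chains 21 were tested, of which 8 rose and 11 fell with LPS (9 and 6 after rescaling), and 3 rose and 10 fell with metformin. The median log2 fold changes were -0.41 and -0.12, close to those of all tested genes. Il15ra rose from 2.40 to 44.6 TPM with LPS (log2 fold change 3.76). Il4ra, the receptor chain of IL-4 and IL-13 that acts through STAT6, rose from 43.3 to 175 TPM with LPS (1.99) and was at 52.7 TPM in Met + LPS (-1.71). Il21r and Il6ra fell with LPS by 1.88 and 1.85. With metformin Il7r rose by 1.38, and Il10ra and Lifr fell by 0.78 and 0.77.

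Among regulators of the pathway, 7 of 8 SOCS genes were tested, which encode feedback inhibitors of Janus kinases and receptors. LPS raised 4 and lowered 3 of them (5 and 2 after rescaling), and metformin raised 2 and lowered 4. Socs3 went from 2.94 to 1714 TPM, Cish from 0.128 to 47.2 TPM and Socs1 from 1.32 to 95.4 TPM with LPS, and in Met + LPS they were at 1093, 22.9 and 53.9 TPM (log2 fold changes -0.65, -1.01 and -0.81 against LPS). Socs6 went the other way, lower by 1.80 with LPS and higher by 0.96 with metformin. Of the 4 PIAS genes, inhibitors in the nucleus, 3 fell with LPS, where 60.1% of all tested genes passed as lower. These were Pias3 by 0.71, Pias4 by 0.69 and Pias2 by 0.53, but none of them was past the test as lower after rescaling. With metformin Pias3 and Pias1 fell by 0.66 and 0.31 and Pias4 rose by 0.39. Of 5 phosphatases 3 rose and 2 fell with LPS (3 and 1 after rescaling). Ptpn2 rose by 1.66 and Ptpn1 fell by 1.19. Only Ptpn6, which encodes SHP-1, passed with metformin, and it went from 236 to 151 TPM. A further 7 genes were listed as adaptors or brakes. Usp18, an interferon-induced inhibitor of the type I interferon receptor, rose with LPS by 3.61 and fell with metformin by 0.78. With LPS 4 of the 7 fell (3 after rescaling), a share close to the 60.1% of all tested genes. Among them were Sh2b3, lower by 1.53, and Sh2b1, lower by 1.43. With metformin 5 of the 7 rose, among them Stam by 0.76, Cbl by 0.46 and Sh2b2 by 0.35.

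All 11 listed ISGF3 targets rose with LPS (median log2 fold change 5.24), led by Rsad2, Mx1, Ifit1 and Mx2 at 7.42, 7.35, 6.87 and 6.75. With metformin 6 of them fell and 1 rose (median -0.37), with the largest decreases in Usp18 (0.78), Mx1 (0.68), Irf7 (0.62) and Oas2 (0.50). Of 7 STAT5 targets 6 were tested, and 4 rose and 2 fell with LPS. Cish, Ccnd2 and Pim1 rose by 5.42, 4.58 and 3.54 and Ccnd1 fell by 0.92. With metformin Cish, Ccnd1 and Ccnd2 fell by 1.01, 0.71 and 0.53, whereas Osm and Pim1 rose, so that 4 fell and 2 rose. Of 11 STAT6 targets 7 were tested, and 3 rose with LPS (4 after rescaling), Ccl22 by 7.59, Ccl17 by 5.23 and Chil3 by 0.54. With metformin Clec10a fell by 1.25 and Egr2 rose by 0.73, and the other 5 did not pass. Some genes are on more than 1 list, such as Cish, Osm and Usp18, and many are targets of other factors that LPS activates.

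**Figure D4:**
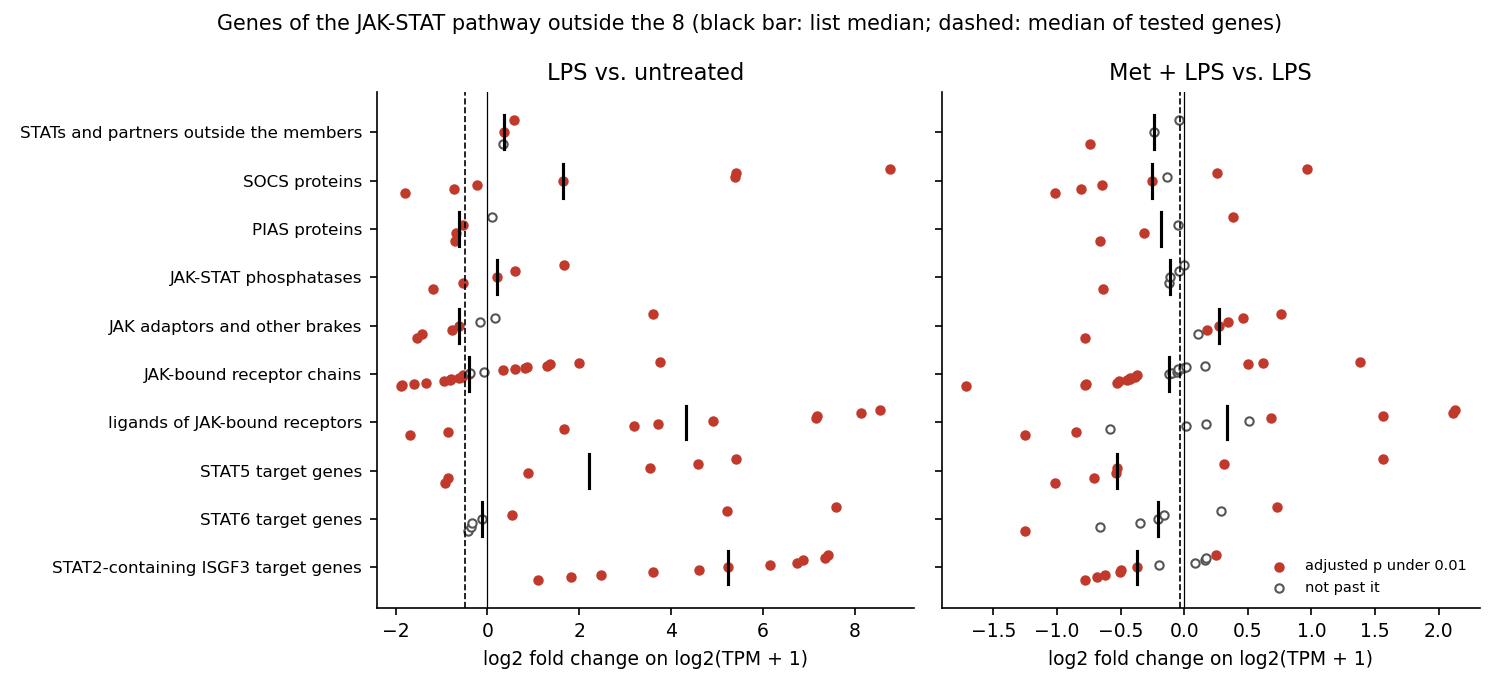
Log2 fold changes on the log2(TPM + 1) scale (horizontal axes) of the tested genes of 10 pathway lists, LPS vs. untreated on the left and Met + LPS vs. LPS on the right. Filled points passed an adjusted p-value of 0.01 and open points did not, black bars are list medians and dashed lines the median of all tested genes; ISGF3 targets lie to the right of 0 under LPS with a median of 5.24, and ligands reach 2.13 under metformin.

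The cells carried the markers of macrophages. All 8 markers were detected, with a summed level of 44621 to 46599 TPM in untreated, 37412 to 37903 TPM in LPS and 30877 to 30948 TPM in Met + LPS libraries. Lyz2 made up most of it, and the sum was in the same order over the groups as Jak3. Not every marker followed that order, as Cd14 and Adgre1 were higher in LPS than in untreated libraries. The part of the sum in the Jak3 result was not tested. Markers of B cells and NK cells, which are known to use Jak3, summed to at most 0.515 and 0.305 TPM, and those of T cells at 2.72 to 7.06 TPM were mostly Cd4. Neutrophil and precursor markers summed to 24.4 to 42.0 TPM and were highest in Met + LPS, dendritic cell markers to 1.54 to 4.21 TPM, fibroblast markers to 0.296 to 0.727 TPM and mast cell markers to 0.181 to 1.56 TPM. Both erythroid markers were at 0. Reads recovered from the TPM values numbered 25457016 to 30762754 per library.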

How the data were processed

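Poly-A RNA was sequenced, and the authors deposited 1 table of TPM values per gene for 6 libraries of mouse BMDMs. The submitters' processing notes name STAR 2.6.1d, SAMtools 1.9 and featureCounts of Subread 1.6.3, and the strand setting is not given in the sources used here. The table uses build GRCm38.

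The members and gene lists were chosen with earlier results of these data known. Genes that reached 1 TPM in 2 or more libraries were tested on log2(TPM + 1) with limma 3.58.1 (R 4.3.3; lmFit and eBayes with trend, all 6 libraries, no covariate), with Benjamini-Hochberg adjustment. All members were named, with at most 4 genes per list and comparison, those with the largest changes past the test, and the 2 nearest profiles of each member; 1 gene of the lists is not reported here. Values were multiplied by exon length and divided by the value of 1 read in that library. They then matched whole reads (tolerance 0.02) for 97.5% to 97.9% of low values, and limma voom on these reads was an alternative. Reads carry no molecular identifiers. The test, on simulated data for LPS against untreated BMDMs, recovered 153 of 200 changed genes with 4 false calls among 12241 genes. The simulation changed equal numbers of genes up and down, with an assumed spread between replicates and no shift of the median gene. In the data themselves 76.3% of tested genes passed. These counts therefore do not give the rate of false calls there. Alternatives concerned pseudocount, filter, scaling, groups fitted, trend, replicate block and leaving out libraries. The alternatives that joined rescaling with the block or with voom were added after seeing the data. Python 3.11.15 was used for shares, distances and motifs.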

Additional observations from a re-analysis of the deposited data

How the results depend on the processing

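Of 384 log2 fold changes of the members under the alternatives, 323 kept their direction and side of the threshold, 46 no longer passed the test and 15 reversed. The reversals came with median-ratio rescaling, alone, with the replicate block and with voom. Against untreated BMDMs in LPS, Stat6 was at 0.15 in all 3, Jak3 at 0.12, 0.12 and 0.13 and Tyk2 at 0.47, 0.47 and 0.48. In Met + LPS, Stat6 was at 0.24 in all 3 and Tyk2 at 0.23 in all 3. Rescaling moved the share of higher genes among all calls between LPS and untreated BMDMs from 21.3% to 52.6%. The number of members past the test between Met + LPS and LPS was 7, and it was 3 with no filter on low values, 3 with the compared groups alone, 4 without the trend and between 3 and 5 when 1 library was left out. The cause of the losses with no filter and without the trend was not tested, and the other 2 settings use fewer samples. The numbers of members past the test in the other comparisons and past the study's cut-offs stayed within 1.5 times under every alternative. Their directions did not. Between LPS and untreated BMDMs the 7 members were 5 higher and 2 lower as deposited, and all 7 were higher in the 3 alternatives with rescaling. Between Met + LPS and untreated BMDMs 5 higher and 3 lower became 7 and 1. The replicate block changed no call of a member (7, 7 and 8 calls). Deviations of the A libraries from their group means correlated at -0.004, 0.028 and 0.006 over genes between the 3 pairs of groups. These values show no offset over genes shared by libraries of a letter. They cannot tell whether such libraries came from the same mouse or preparation. Jak3 had the fewest reads of the members, 299 to 616 per library, and a standard error of 0.09 on the log2 scale, against 0.03 to 0.05 for the other members.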

Other observations

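Ratios between members give values free of the scaling between libraries. The ratio of Jak2 to Jak1 was 0.198 in untreated BMDMs, 2.73 in LPS and 2.27 in Met + LPS, and that of Jak2 to Tyk2 was 0.523, 10.7 and 9.31 in the same order. Stat5a stood at 0.0608 of Stat6 in untreated BMDMs, at 1.08 in LPS and at 0.539 in Met + LPS. Jak3 stood at 0.105 of Jak1, at 0.0560 and at 0.0415, with 0.0499 and 0.0620 in the 2 LPS libraries. These ratios were not tested.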
